A study of Homo sapiens with 18 samples.

Results

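The genes described here are 34 genes that mark liver, gut and pancreas, read in 22Rv1 and LNCaP prostate cancer cells in which the transcription factor ONECUT2 had been manipulated. They were listed by name for their known place in those tissues, with earlier results of these arrays in view. Each was read from the probe sets that map to a single gene symbol, and where a gene had several, the one with the highest mean over all 18 arrays stood for it. By this rule 33 of the 34 genes had a probe set, out of 19752 genes on the array, and VTN (vitronectin) had none. A log2 value of over 4 on at least 3 arrays, close above the background of these values, was reached by 17 of the 33 genes. Those 17 were tested with 12156 genes of the series, and the other 16 stayed under 4 on all 18 arrays.

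ONECUT2 is a homeobox factor of the HNF6 family. Total RNA was measured on Affymetrix Human U133 Plus 2.0 arrays, 3 in each of 6 groups. 22Rv1 is a line derived from a xenograft of prostate carcinoma, and LNCaP was established from a metastasis in a lymph node. The 4 groups of 22Rv1 cells were control, ONECUT2 (OC2 in the labels) overexpression, scramble shRNA and shONECUT2 (ONECUT2 shRNA), and the groups of LNCaP cells were control and ONECUT2 overexpression. Overexpression came from a lentivirus that carries the full-length ONECUT2 cDNA in the vector pLenti-C-Myc-DDK-IRES-Puro, and the shRNAs from lentiviral pLKO vectors, all under puromycin selection as stable lines. Control cells of both lines carry the treatment label Vehicle, and whether they held a vector is not given in the sources used here, nor whether a line was 1 clone. Groups of 3 arrays limit the precision. No label states that the replicates of a group were separate cultures, and each p-value therefore measures only the spread among arrays, which could be technical.

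Hepatocytes make most plasma proteins, among them albumin, apolipoproteins, fibrinogen and protease inhibitors, and enterocytes share part of that programme along with brush border and absorption proteins. In liver, gut and pancreas these genes are driven together by a small network of factors, HNF1, HNF4, FOXA, CDX and ONECUT proteins, several of which bind close to the start of their targets. ONECUT proteins bind sequences with the core ATTGAT or ATCGAT and are known for their part in the development of liver and pancreas.

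Promoter sequence of these genes was taken from RefSeq windows of build GRCh38.p14, which run from 250 bases before to 50 bases after a transcription start. Of the 34 genes, 28 matched by symbol and 6 did not, and 7 of the 28 had more than 1 window. The letters of 5 short motifs were searched on both strands: ATTGAT and ATCGAT for ONECUT proteins, GTTAAT (part of the HNF1 site), AAAGTCC (part of the HNF4 site) and TTTATG (a CDX core). No match in these windows shared bases with a match of another motif. GTTAAT lay in the windows of 9 of the 28 genes, against 6.88% of all 35116 windows, and TTTATG in those of 9 genes, against 10.6%. AAAGTCC lay in 4, against 3.71% of windows, ATTGAT in 2 (SPINK1 and SLC2A2), against 6.26%, and ATCGAT in 1 (AMBP), against 0.763%. A gene with several windows had more chances to hold a motif than a single window, and a match of letters is a description, not a binding site.

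The 250 bases before the start of 8 genes are shown from 5′ to 3′ of the gene, with the motif matches in capitals. GCG and DDC were picked as genes called in the same direction in several comparisons. The others were chosen after their values were seen. ALB, APOH, AMBP and CYP2C8 were taken for their changes in 22Rv1, and FGB as a plasma protein gene with no reading over 4. SPINK1 was taken as 1 of several genes called lower in 22Rv1 overexpression but not called between the shRNA groups. A1CF, TFPI, CPS1 and LGALS4, also called in several comparisons, held none of the 5 motifs and are not printed.
ALB: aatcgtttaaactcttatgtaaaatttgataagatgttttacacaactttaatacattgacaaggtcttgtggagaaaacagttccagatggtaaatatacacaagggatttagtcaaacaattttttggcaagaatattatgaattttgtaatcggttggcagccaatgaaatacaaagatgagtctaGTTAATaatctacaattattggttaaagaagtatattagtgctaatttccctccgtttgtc
APOH: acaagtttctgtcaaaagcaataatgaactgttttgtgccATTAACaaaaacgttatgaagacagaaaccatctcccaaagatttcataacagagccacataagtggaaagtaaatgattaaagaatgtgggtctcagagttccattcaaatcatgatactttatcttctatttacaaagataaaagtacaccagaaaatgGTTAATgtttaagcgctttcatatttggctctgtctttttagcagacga
AMBP: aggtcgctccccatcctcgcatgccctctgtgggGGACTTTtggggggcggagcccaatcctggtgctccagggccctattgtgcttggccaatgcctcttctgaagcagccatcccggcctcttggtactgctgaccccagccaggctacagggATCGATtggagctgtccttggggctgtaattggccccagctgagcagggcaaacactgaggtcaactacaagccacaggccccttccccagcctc
FGB: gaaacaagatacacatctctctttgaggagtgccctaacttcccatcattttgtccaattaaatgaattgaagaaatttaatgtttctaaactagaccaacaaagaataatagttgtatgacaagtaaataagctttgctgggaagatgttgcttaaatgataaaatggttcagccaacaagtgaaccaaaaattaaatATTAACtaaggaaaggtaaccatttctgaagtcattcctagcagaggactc
SPINK1: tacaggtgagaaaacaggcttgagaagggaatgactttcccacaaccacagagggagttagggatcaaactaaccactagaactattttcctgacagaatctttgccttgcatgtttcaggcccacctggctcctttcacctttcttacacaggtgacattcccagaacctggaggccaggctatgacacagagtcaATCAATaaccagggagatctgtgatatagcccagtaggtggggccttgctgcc
CYP2C8: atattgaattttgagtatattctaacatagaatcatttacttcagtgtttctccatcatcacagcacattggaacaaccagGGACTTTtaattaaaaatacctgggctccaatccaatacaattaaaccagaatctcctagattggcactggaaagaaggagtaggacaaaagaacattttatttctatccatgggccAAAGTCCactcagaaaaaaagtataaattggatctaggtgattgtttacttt
GCG: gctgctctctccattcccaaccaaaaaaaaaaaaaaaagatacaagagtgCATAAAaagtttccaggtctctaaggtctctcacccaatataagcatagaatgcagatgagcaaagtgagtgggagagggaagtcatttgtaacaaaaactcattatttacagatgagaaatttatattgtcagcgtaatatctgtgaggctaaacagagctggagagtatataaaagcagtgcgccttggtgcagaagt
DDC: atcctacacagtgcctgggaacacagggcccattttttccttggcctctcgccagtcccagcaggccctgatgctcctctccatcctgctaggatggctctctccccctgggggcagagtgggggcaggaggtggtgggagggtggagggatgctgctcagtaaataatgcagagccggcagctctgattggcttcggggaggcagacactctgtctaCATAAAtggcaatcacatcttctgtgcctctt
ALB (chr4:73404037-73404286, plus strand) held GTTAAT 61 bases before the start, and APOH (chr17:66229416-66229665, minus strand) held it 49 bases before and, on the other strand, 210 bases before. FGB (chr4:154562730-154562979, plus strand) held the other strand of GTTAAT 51 bases before the start. SPINK1 (chr5:147831672-147831921, minus strand) held the other strand of ATTGAT 53 bases before its start. AMBP (chr9:114078301-114078550, minus strand) held ATCGAT 95 bases before and the other strand of AAAGTCC 216 bases before. CYP2C8 (chr10:95069498-95069747, minus strand) held AAAGTCC 52 bases before and, on the other strand, 169 bases before. The other strand of TTTATG lay 200 bases before the start in GCG (chr2:162152248-162152497, minus strand) and 32 bases before it in 1 of the 2 windows of DDC (chr7:50561072-50561321, minus strand).

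ONECUT2 itself went against the labels of the shRNA arrays. Its gene-level probe set averaged 8.21 ± 0.05 (SD, n = 3) in 22Rv1 control and 8.75 ± 0.14 in overexpression, 6.81 ± 0.24 on the arrays labelled scramble and 8.86 ± 0.35 on the arrays labelled ONECUT2 shRNA. It was thus higher by 2.05 ± 0.16 (log2 ± SE) on the arrays labelled ONECUT2 shRNA than on those labelled scramble, and every direction drawn from these groups carries that discrepancy. Array titles of the group labelled ONECUT2 shRNA end like the identifier of a clone in the protocol, while the number in the titles of the group labelled scramble matches no clone named there. Whether these groups were exchanged cannot be told from the labels, and with an exchange each difference between them would change sign. In LNCaP it averaged 6.61 ± 0.10 in control and 7.27 ± 0.04 in overexpression. The 3 further ONECUT2 probe sets that passed the filter did not all move alike. One rose by 1.16 in 22Rv1 overexpression, by 0.53 in LNCaP overexpression and by 1.97 between the shRNA groups. A different one was lower in 22Rv1 overexpression (-0.97, adjusted p = 0.00234), was not called in LNCaP (0.23, adjusted p = 0.415) and was higher by 1.74 on the arrays labelled ONECUT2 shRNA. The last rose by 1.13 and 3.68 on overexpression in 22Rv1 and LNCaP and was not called between the shRNA groups (0.17, adjusted p = 0.792), where both means lay under 4. Array medians lay between 3.26 and 3.34, and arrays of a group correlated at 0.996 to 0.998 over all 54675 probe sets, but at 0.975 to 0.995 in LNCaP overexpression, where replicate 1 stood nearest the controls (mean correlation 0.969, against 0.948 and 0.953). In the 22Rv1 overexpression arrays the beta-actin control probe sets differed by 8.06 ± 0.70 between the 3′ and 5′ ends, against 4.11 ± 0.41 in control (exact two-sided permutation p = 0.1, the lowest possible with groups of this size). The GAPDH control probe sets gave -0.43 ± 0.13 and -0.70 ± 0.09 in the same groups, with no excess at the 3′ end in either. Their shift of 0.26 on overexpression was much smaller but in the same direction as that of beta-actin (exact two-sided permutation p = 0.1). The part of RNA quality in the changes below was not tested. Of 10 prostate luminal markers listed, all 8 with a probe set passed the filter and averaged 6.47 to 6.60 per array in 22Rv1 control and 4.86 to 4.90 in 22Rv1 overexpression. They averaged 6.77 to 6.79 on the arrays labelled scramble and 6.01 to 6.07 on those labelled ONECUT2 shRNA. In LNCaP they averaged 9.13 to 9.23 in control and 4.66 to 6.18 in overexpression. The 6 leukocyte markers with a probe set were under 4 on every array, as were 3 of the 4 endothelial markers (highest value of the list 4.50, VWF), and 3 of 6 stromal markers passed. Of those, COL1A1 rose on overexpression, from a mean of 7.64 to 9.76 in 22Rv1 and from 7.81 to 11.44 in LNCaP, while COL3A1 and LUM were called lower in both lines. LUM averaged 5.65 in 22Rv1 control, 2.41 in overexpression, 7.37 on the arrays labelled scramble and 4.04 on those labelled ONECUT2 shRNA. The part of these markers in the results was not tested.

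Most of the classical plasma proteins of hepatocytes on the list were not seen in either line. The values of APOB and APOA1, protein components of lipoproteins, lay between 2.23 and 2.73 and between 2.65 and 3.28 over the 18 arrays. FGA, FGB and FGG, the chains of fibrinogen, lay at 2.41 to 2.96, 3.01 to 3.52 and 2.57 to 3.15. SERPINA1 (alpha-1 antitrypsin) lay at 2.59 to 3.45, TF (transferrin) at 2.64 to 3.13, AHSG (fetuin-A) at 2.47 to 3.71 and KNG1 (kininogen) at 2.13 to 2.82. Some gut genes were not seen either, while SPINK1, MUC13, GCG, VIL1, LGALS4 and CDH17 passed the filter. CDX2, the homeobox factor of the intestine, lay at 2.40 to 2.86. FABP1, a fatty acid carrier of liver and gut, lay at 1.81 to 2.29, and MTTP, which loads lipid onto apolipoprotein B, at 2.34 to 2.87. TFF3, a trefoil peptide, reached 3.85 from a lowest value of 2.48. The surface proteins TM4SF4 and TM4SF5 lay at 2.15 to 2.88 and 2.30 to 3.20, and SLC2A2, the glucose transporter of liver and beta cells, at 0.70 to 1.19. The 17 genes of the list that passed the filter are described one by one below. Whether the list marks either line as liver or gut was not tested.

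**Figure D1:**
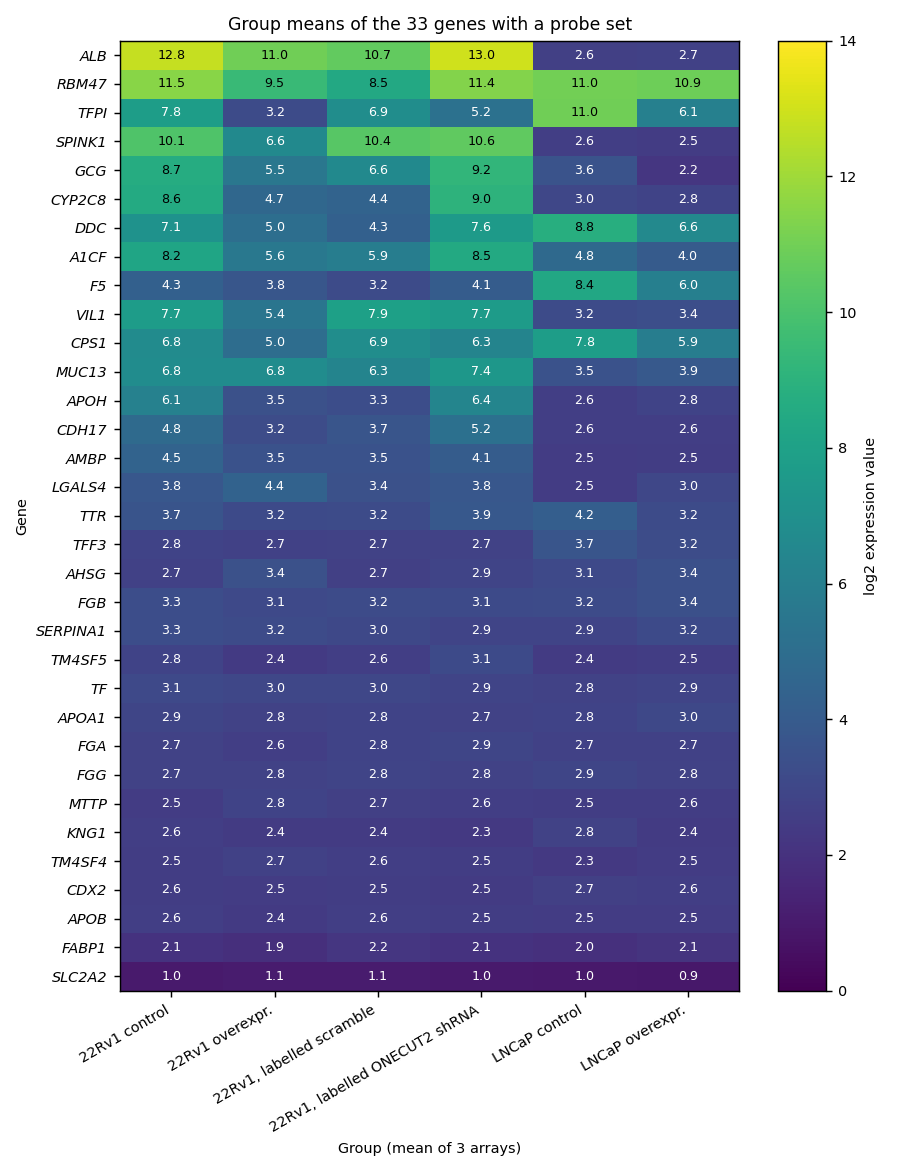
Group mean of the log2 value of the 33 genes with a probe set (rows, ordered by their highest group mean) in the 6 groups (columns, 3 arrays each), with the mean printed in each cell. Colour is to be read along a row, since levels of different probe sets are not comparable; the lower 16 rows stay under 4 in every group.

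In 22Rv1 control 15 of the 17 tested genes read over 4 on all 3 arrays, against 11 in 22Rv1 overexpression. The arrays labelled scramble held 11 such genes and those labelled ONECUT2 shRNA 13. LNCaP control held 7 and LNCaP overexpression 4. Because a gene could pass the filter through the group in which it is high, counts of called genes among the 17 are descriptions of these genes.

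**Figure D2:**
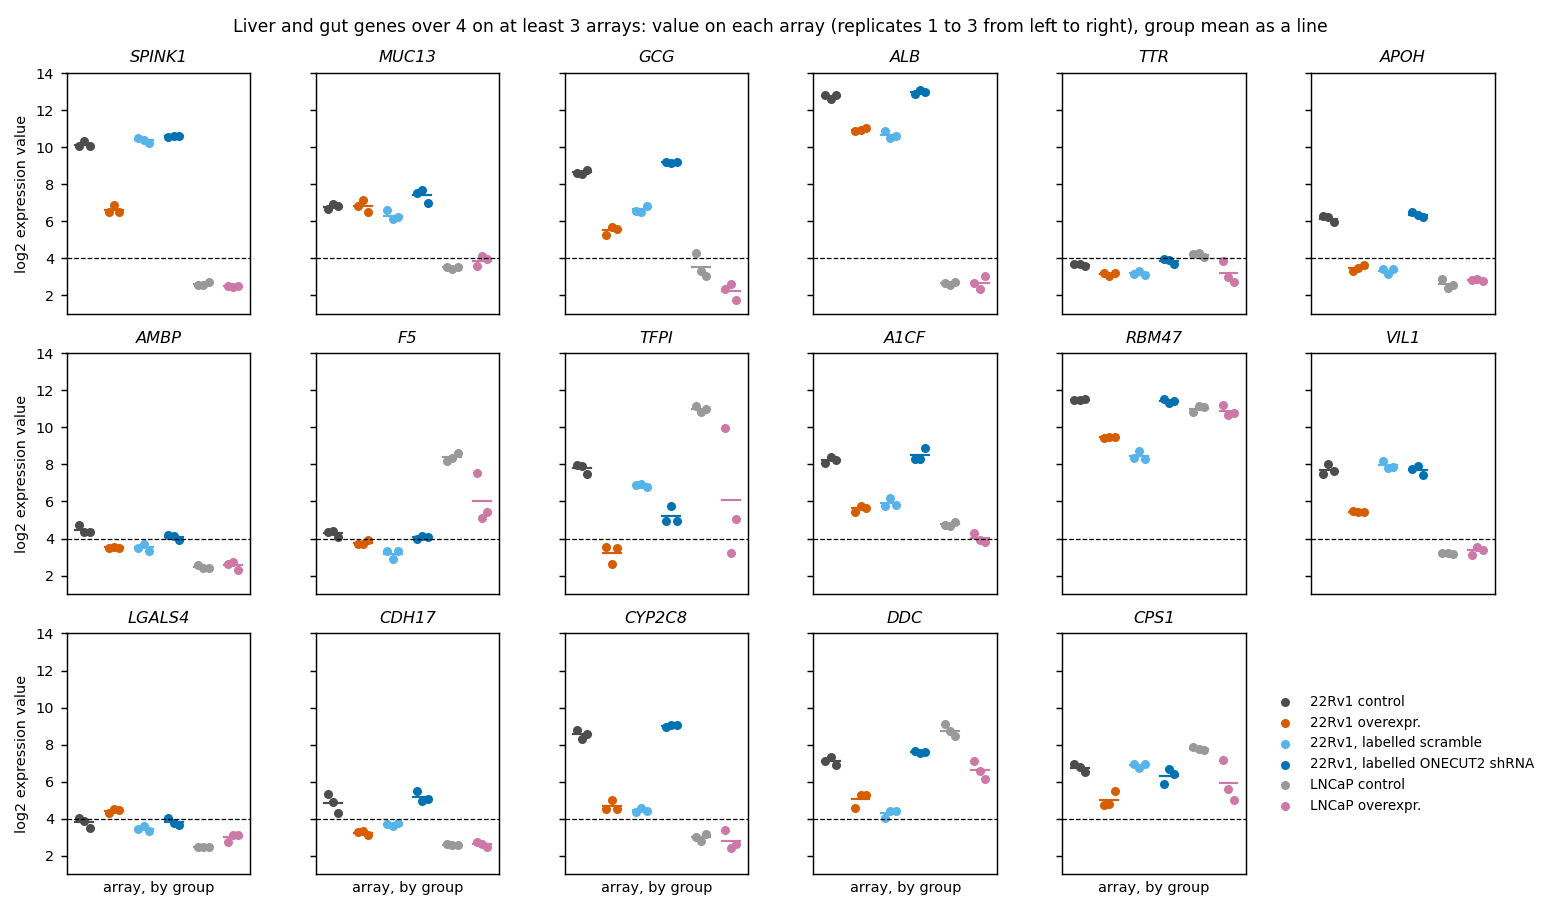
Log2 value (vertical axis) of the 17 tested genes on each of the 18 arrays, 1 panel per gene, with points for replicates 1 to 3, lines for group means and a dashed line at 4. In most panels the 22Rv1 control arrays and the arrays labelled ONECUT2 shRNA lie high, and the 22Rv1 overexpression arrays and the arrays labelled scramble lie low.

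When ONECUT2 was overexpressed in 22Rv1, 14 of the 17 genes were lower than in control, 1 was higher (LGALS4) and 2 were not called (MUC13 and F5). Over all 12156 genes, 24.3% were called lower, 36.5% higher and 60.8% either way. The median change of the 17 genes was -2.03, beside 0.10 over all genes. The values of the 2 groups did not overlap for 16 of the 17 genes, beside 76.7% of all genes. In bulk RNA fewer cells that express a gene and less RNA per cell cannot be told apart. In LNCaP 7 of the 17 were lower, 1 was higher (again LGALS4) and 9 were not called, beside 28.0% lower, 34.1% higher and 62.2% either way over all genes, and the medians were -0.14 and 0.09. Of the 17 genes 10 did not overlap there, beside 58.2%. Between the arrays labelled ONECUT2 shRNA and those labelled scramble, 11 of the 17 were higher on the former and none was lower, beside 13.4% higher, 16.1% lower and 29.6% either way. The limma fit also gave 0 lower at an unadjusted p under 0.05, and 2 lower (TFPI and CPS1) when fitted on those 2 groups alone. The shares over all genes are those of the main fit with adjusted p, and are not the base for these counts. The medians were 1.08 and -0.03, and 16 of the 17 genes did not overlap, beside 53.6%. Adjusted p-values are those of limma over all genes tested, and folds are differences of log2 means turned to a linear scale.

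The first class is the secreted products of gut and pancreas. SPINK1, a trypsin inhibitor of pancreas and gut mucosa, read 10.05, 10.33 and 10.06 in 22Rv1 control and 6.49, 6.87 and 6.52 in overexpression. All overexpression arrays were far under the controls, by 3.52 ± 0.13 (11.5-fold, adjusted p = 4.8e-12). It read 10.52, 10.39 and 10.22 on the arrays labelled scramble, and on those labelled ONECUT2 shRNA 10.56, 10.62 and 10.62. That difference of 0.22 ± 0.13 was not called (adjusted p = 0.204), unlike the change on overexpression. In LNCaP SPINK1 did not exceed 2.74, with 2.55, 2.59 and 2.74 in control and 2.51, 2.43 and 2.52 in overexpression, and no change was called (-0.14 ± 0.13, adjusted p = 0.361).

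GCG encodes proglucagon, the precursor of glucagon and of the gut hormone GLP-1. Its values were 8.60, 8.58 and 8.78 in 22Rv1 control and 5.29, 5.69 and 5.61 in overexpression, lower by 3.12 ± 0.26 (8.69-fold, adjusted p = 3.49e-08). They were 6.58, 6.50 and 6.84 on the arrays labelled scramble, between the former groups. The arrays labelled ONECUT2 shRNA read 9.22, 9.16 and 9.22, all above the arrays labelled scramble, by 2.56 ± 0.26 (5.9-fold, adjusted p = 2e-06). LNCaP control read 4.30, 3.34 and 3.04 and overexpression 2.35, 2.61 and 1.74. The overexpression arrays were again lower (-1.32 ± 0.26, adjusted p = 0.000323), but both means lay under 4, so no fold is given, and with values under 4 set to 4 the call was lost (-0.10, adjusted p = 0.544).

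MUC13, a membrane mucin of the intestine, read 6.64, 6.95 and 6.80 in 22Rv1 control and 6.81, 7.18 and 6.51 in overexpression. The groups overlapped (0.04 ± 0.20, adjusted p = 0.891). A further MUC13 probe set was lower there by 0.84 ± 0.16 (adjusted p = 0.000327), and the mean over the gene's probe sets fell by 0.40 (adjusted p = 0.0179), so the probe sets of MUC13 differed. It read 6.61, 6.11 and 6.23 on the arrays labelled scramble and 7.54, 7.67 and 6.99 on those labelled ONECUT2 shRNA, where it was higher by 1.08 ± 0.20 (2.12-fold, adjusted p = 0.000802). The further probe set averaged 4.82 and 4.99 in these groups. In LNCaP it read 3.53, 3.44 and 3.55 in control and 3.57, 4.11 and 3.98 in overexpression. The difference of 0.38 ± 0.20 was not called (adjusted p = 0.121), and without overexpression replicate 1 it was (0.53, adjusted p = 0.0236).

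Among plasma carriers, ALB (albumin) read 12.81, 12.60 and 12.85 in 22Rv1 control and 10.90, 10.96 and 11.02 in overexpression. It was lower by 1.79 ± 0.15 (3.47-fold, adjusted p = 3.36e-08). The arrays labelled scramble read 10.86, 10.50 and 10.59, as low as overexpression, and the arrays labelled ONECUT2 shRNA 12.86, 13.12 and 13.004. Between these groups ALB differed by 2.34 ± 0.15 (5.07-fold, adjusted p = 9.66e-09). In LNCaP it lay at 2.65, 2.54 and 2.75 in control and 2.66, 2.36 and 3.03 in overexpression, under 4 on all 6 arrays (0.04 ± 0.15, adjusted p = 0.82). The size of the albumin change depended on the probe set. A second ALB probe set averaged 9.57 in 22Rv1 control and 4.25 in overexpression, lower by 5.32 ± 0.38 (adjusted p = 5.77e-09). A further one, which averaged near 4 in control, fell by 1.74 to a mean of 2.40, under 4. Between the shRNA groups these further probe sets differed by 2.71 and 1.10.

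**Figure D3:**
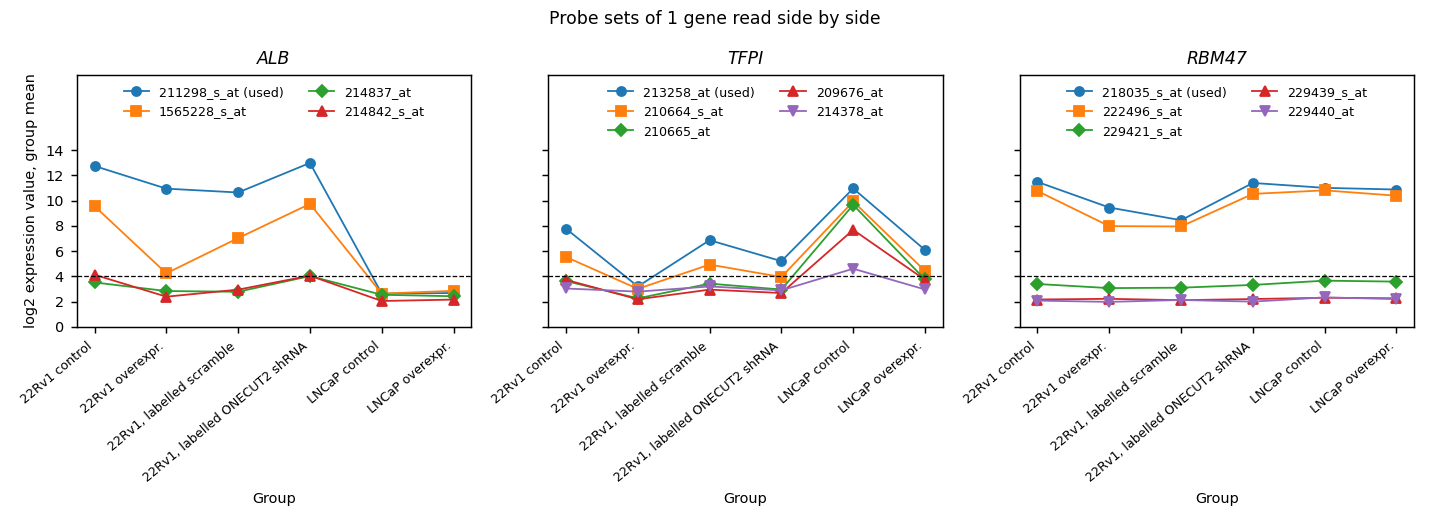
Group means of the log2 value of every single-symbol probe set of ALB, TFPI and RBM47 (1 panel each, 1 line per probe set) in the 6 groups, with the probe set that stands for the gene marked as used and a dashed line at 4. The second ALB probe set falls from 9.57 to 4.25 in 22Rv1 overexpression, while the one used falls from 12.75 to 10.96; the TFPI probe sets are all highest in LNCaP control.

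APOH (beta-2 glycoprotein I) went from clearly measured to background. It read 6.28, 6.21 and 5.96 in 22Rv1 control and 3.33, 3.46 and 3.66 in overexpression. The lower group is under 4 on every array, so the fall is given as at least 2.15 (at least 4.44-fold, adjusted p = 2.15e-10). The arrays labelled scramble read 3.44, 3.15 and 3.41 and those labelled ONECUT2 shRNA 6.48, 6.36 and 6.23, higher by at least 2.36 (at least 5.12-fold, adjusted p = 2.4e-10). In LNCaP it stayed under 4, with 2.89, 2.38 and 2.58 in control and 2.82, 2.88 and 2.78 in overexpression (0.21 ± 0.14, adjusted p = 0.203). Without LNCaP control replicate 1 that difference was called (0.35, adjusted p = 0.049), still under 4.

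AMBP, the precursor of alpha-1 microglobulin and bikunin, moved the same way near the background. Its 22Rv1 control arrays read 4.71, 4.35 and 4.37 and its overexpression arrays 3.51, 3.54 and 3.50, lower by at least 0.48 (at least 1.39-fold, adjusted p = 1.49e-05). It read 3.51, 3.72 and 3.32 on the arrays labelled scramble and 4.16, 4.13 and 3.92 on those labelled ONECUT2 shRNA. The latter were higher by at least 0.07 (at least 1.05-fold, adjusted p = 0.00589), a call lost with values under 4 set to 4 (0.10, adjusted p = 0.408). LNCaP values were 2.55, 2.41 and 2.42 in control and 2.64, 2.72 and 2.29 in overexpression (0.08 ± 0.14, adjusted p = 0.614).

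TTR (transthyretin, the carrier of thyroxine and retinol-binding protein) lay under 4 on every 22Rv1 array. It read 3.69, 3.70 and 3.60 in control and 3.21, 3.04 and 3.20 in overexpression (-0.51 ± 0.20, adjusted p = 0.0336), a call lost in each fit that left out 1 array of these groups (adjusted p from 0.0547 to 0.0994). It read 3.16, 3.31 and 3.08 on the arrays labelled scramble and 3.99, 3.94 and 3.72 on those labelled ONECUT2 shRNA (0.69 ± 0.20, adjusted p = 0.0133). Both groups of each pair were under 4, so these differences have no fold. In LNCaP TTR read 4.24, 4.28 and 4.07 in control and 3.85, 2.99 and 2.74 in overexpression, lower by at least 0.20 (at least 1.14-fold, adjusted p = 0.000319).

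The plasma coagulation genes were F5 and TFPI, both at their highest in LNCaP control. F5 encodes coagulation factor V. It read 8.17, 8.33 and 8.64 in LNCaP control and 7.52, 5.08 and 5.46 in overexpression, lower by 2.36 ± 0.41 (5.13-fold, adjusted p = 9.71e-05). Overexpression replicate 1 lay nearest the controls, and without it the change was -3.11. In 22Rv1 it read 4.34, 4.40 and 4.11 in control and 3.69, 3.73 and 3.90 in overexpression. The groups did not overlap, but the change was not called (-0.51 ± 0.41, adjusted p = 0.291). It read 3.32, 2.89 and 3.32 on the arrays labelled scramble and 3.99, 4.13 and 4.06 on those labelled ONECUT2 shRNA (0.88 ± 0.41, adjusted p = 0.118). The standard error pools the spread of LNCaP overexpression, and without its replicate 1 both 22Rv1 differences were called (adjusted p = 0.00462 and 8.81e-05). In both, every array of the lower group lay under 4. A further F5 probe set averaged under 4 in every 22Rv1 group and was not called there (-0.02, adjusted p = 0.929, and 0.12, adjusted p = 0.7). In LNCaP overexpression it was lower by 1.12 (adjusted p = 0.000171).

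TFPI, the inhibitor of the tissue factor pathway of coagulation, had the largest standard error of the 17 genes in the main fit. It read 11.13, 10.81 and 10.98 in LNCaP control and 9.99, 3.24 and 5.06 in overexpression, lower by 4.88 ± 1.08 (29.4-fold, adjusted p = 0.00109). All 3 overexpression arrays were under the controls, but by very different amounts: without replicate 1 the change was -6.82, without replicate 2 -3.45 and without replicate 3 -4.36. In 22Rv1 it read 7.98, 7.91 and 7.46 in control and 3.53, 2.62 and 3.47 in overexpression, lower by at least 3.78 (at least 13.8-fold, adjusted p = 0.00185). The 4 further TFPI probe sets were also lower in LNCaP overexpression, by 1.64 to 5.91, and in 22Rv1 overexpression by 0.25 to 2.53, of which 1 was called. The others averaged under 4 already in 22Rv1 control (3.05, 3.63 and 3.73), near background. On the arrays labelled scramble TFPI read 6.90, 6.93 and 6.80 and on those labelled ONECUT2 shRNA 4.94, 5.76 and 4.94. Here TFPI was on the other side from most of the 17 genes, lower on the arrays labelled ONECUT2 shRNA, and the difference of -1.66 ± 1.08 was not called with all arrays in the fit (adjusted p = 0.278). Leaving LNCaP overexpression replicate 1 out of the fit made it a call (adjusted p = 0.00102), as did fitting the 2 groups alone (adjusted p = 0.000201).

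A1CF and RBM47 are the RNA-binding partners of APOBEC1 in the editing of apolipoprotein B mRNA, and both followed the main pattern in 22Rv1. A1CF read 8.06, 8.42 and 8.25 in control and 5.46, 5.77 and 5.65 in overexpression, lower by 2.61 ± 0.18 (6.12-fold, adjusted p = 3.34e-09). It read 5.76, 6.17 and 5.80 on the arrays labelled scramble and 8.31, 8.29 and 8.87 on those labelled ONECUT2 shRNA, higher by 2.58 ± 0.18 (5.98-fold, adjusted p = 2.56e-08). LNCaP arrays read 4.71, 4.70 and 4.87 in control and 4.30, 3.92 and 3.83 in overexpression. This fall of 0.74 ± 0.18 was smaller and still called (1.67-fold, adjusted p = 0.00166).

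RBM47 read 11.47, 11.48 and 11.52 in control and 9.42, 9.47 and 9.49 in overexpression, lower by 2.03 ± 0.13 (4.08-fold, adjusted p = 2.09e-09). The arrays labelled scramble read 8.35, 8.70 and 8.32, lower still, and those labelled ONECUT2 shRNA 11.52, 11.30 and 11.41, higher by 2.95 ± 0.13 (7.73-fold, adjusted p = 1.9e-10). In LNCaP it was measured as clearly as in 22Rv1 control, at 10.83, 11.15 and 11.09, and overexpression read 11.19, 10.67 and 10.80. No change was called there (-0.13 ± 0.13, adjusted p = 0.398). Without overexpression replicate 1 RBM47 was called lower in LNCaP (-0.28, adjusted p = 0.0294), and a further probe set was called lower with all arrays (-0.42, adjusted p = 0.0277).

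VIL1, LGALS4 and CDH17 are epithelial proteins of the gut. VIL1 encodes villin, which bundles actin in microvilli. It read 7.47, 8.03 and 7.64 in 22Rv1 control and 5.48, 5.42 and 5.42 in overexpression, lower by 2.27 ± 0.16 (4.83-fold, adjusted p = 6.43e-09). It read 8.16, 7.80 and 7.87 on the arrays labelled scramble and 7.74, 7.89 and 7.43 on those labelled ONECUT2 shRNA. These overlapped and were not called (-0.26 ± 0.16, adjusted p = 0.264). LNCaP values stayed under 4, at 3.22, 3.22 and 3.15 in control and 3.10, 3.56 and 3.41 in overexpression (0.16 ± 0.16, adjusted p = 0.413).

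CDH17, the liver-intestine cadherin, read 5.31, 4.88 and 4.28 in 22Rv1 control and 3.30, 3.33 and 3.11 in overexpression. It was lower by at least 0.82 (at least 1.77-fold, adjusted p = 3.36e-06). It read 3.68, 3.59 and 3.74 on the arrays labelled scramble and 5.49, 4.93 and 5.04 on those labelled ONECUT2 shRNA, higher by at least 1.15 (at least 2.22-fold, adjusted p = 3.39e-05). In LNCaP it lay at 2.61, 2.57 and 2.58 in control and 2.72, 2.63 and 2.46 in overexpression (0.02 ± 0.20, adjusted p = 0.945).

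LGALS4 (galectin-4, a lectin of the gut epithelium) was the 1 gene that was higher on overexpression in both lines, at low values. In 22Rv1 it read 4.03, 3.87 and 3.47 in control and 4.30, 4.51 and 4.47 in overexpression, higher by 0.63 ± 0.15 (adjusted p = 0.00146), with no fold given because the control mean of 3.79 lay under 4. In LNCaP it read 2.46, 2.47 and 2.48 in control and 2.75, 3.14 and 3.13 in overexpression (0.54 ± 0.15, adjusted p = 0.0047). Every LNCaP value lay under 4, so this difference has no fold and vanished with values under 4 set to 4. It read 3.44, 3.58 and 3.32 on the arrays labelled scramble and 4.01, 3.75 and 3.67 on those labelled ONECUT2 shRNA (0.36 ± 0.15, adjusted p = 0.0791).

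Of the metabolic genes, CYP2C8, a cytochrome P450 of drug and fatty acid metabolism in liver, read 8.78, 8.31 and 8.58 in 22Rv1 control and 4.50, 5.03 and 4.55 in overexpression, lower by 3.87 ± 0.21 (14.6-fold, adjusted p = 3.07e-10). It read 4.36, 4.57 and 4.39 on the arrays labelled scramble and 8.92, 9.08 and 9.07 on those labelled ONECUT2 shRNA. The arrays labelled ONECUT2 shRNA were higher by 4.59 ± 0.21 (24.0-fold, adjusted p = 2.4e-10), the largest rise of all 12156 genes in that comparison as labelled, and the largest fall if the labels were exchanged. LNCaP stayed under 4, with 2.99, 2.79 and 3.18 in control and 3.38, 2.43 and 2.64 in overexpression (-0.17 ± 0.21, adjusted p = 0.498). Without overexpression replicate 1 that difference was called (-0.45, adjusted p = 0.0222), with all values still under 4.

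DDC encodes aromatic L-amino acid decarboxylase, which makes dopamine and serotonin and is found in liver, gut and kidney as well as in neurons. It changed in all 3 comparisons. It read 7.09, 7.35 and 6.92 in 22Rv1 control and 4.57, 5.27 and 5.30 in overexpression, lower by 2.07 ± 0.24 (4.2-fold, adjusted p = 1.54e-06). In LNCaP it read 9.09, 8.73 and 8.45 in control and 7.14, 6.56 and 6.15 in overexpression, lower by 2.14 ± 0.24 (4.41-fold, adjusted p = 1.03e-06). The arrays labelled scramble read 4.06, 4.40 and 4.41, and on those labelled ONECUT2 shRNA 7.68, 7.56 and 7.62, higher by 3.33 ± 0.24 (10.1-fold, adjusted p = 4.46e-08). No groups overlapped in any of these.

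CPS1, the first enzyme of the urea cycle, read 6.97, 6.81 and 6.50 in 22Rv1 control and 4.74, 4.81 and 5.49 in overexpression, lower by 1.74 ± 0.39 (3.35-fold, adjusted p = 0.00095). In LNCaP it read 7.88, 7.74 and 7.71 in control and 7.18, 5.58 and 4.99 in overexpression, lower by 1.86 ± 0.39 (3.63-fold, adjusted p = 0.000532). Replicate 1 was again nearest the controls, and the change was -2.49 without it. On the arrays labelled scramble CPS1 read 6.96, 6.72 and 6.94, close to control, and on those labelled ONECUT2 shRNA 5.85, 6.67 and 6.40. That difference of -0.57 ± 0.39 was not called (adjusted p = 0.297), but was without LNCaP overexpression replicate 1 (adjusted p = 0.0359).

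**Figure D4:**
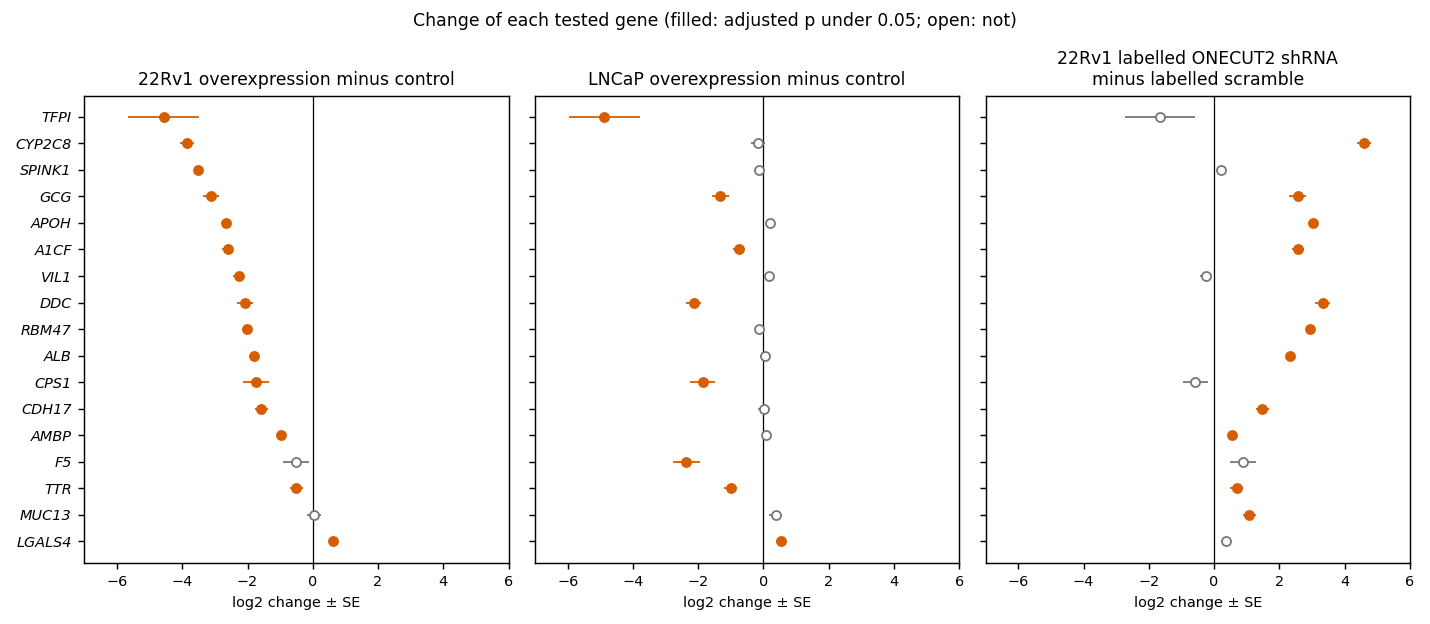
Log2 change ± SE (horizontal axis) of the 17 tested genes in 3 comparisons (panels), filled where the adjusted p is under 0.05. In the panel of 22Rv1 overexpression 14 genes are called to the left of 0 and 1 to the right, in LNCaP overexpression 7 and 1, and between the arrays labelled ONECUT2 shRNA and labelled scramble 11 are called to the right.

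Comparisons with no array in common could be set side by side gene by gene. Of the 14 genes lower in 22Rv1 overexpression, 10 were among the 11 that were higher on the arrays labelled ONECUT2 shRNA than on those labelled scramble, a share of 71.4% of the former and 90.9% of the latter. As labelled, limma called 0 of the 17 lower in both comparisons. Over all genes it called 362 of 12156, so 0 of 17 is near the share over all genes. With the shRNA labels exchanged the 10 genes would be lower in both. The 10 genes are GCG, ALB, TTR, APOH, AMBP, A1CF, RBM47, CDH17, CYP2C8 and DDC. Over all genes 556 were shared, 18.8% of the 2951 lower in 22Rv1 overexpression and 34.1% of the 1630 higher on the arrays labelled ONECUT2 shRNA. SPINK1, VIL1, CPS1 and TFPI were lower in 22Rv1 overexpression without being called higher in the other comparison, and MUC13 was called only in the latter. APOH, CDH17 and AMBP read over 4 only in 22Rv1 control and on arrays labelled ONECUT2 shRNA. They thus passed the filter through the groups in which they are high. The 17 genes were also listed with earlier results of these arrays in view, so the shares above describe them and test nothing. Between the lines, 6 genes (GCG, TTR, TFPI, A1CF, DDC and CPS1) were lower on overexpression in both, 42.9% of the 14 in 22Rv1 and 85.7% of the 7 in LNCaP. Over all genes 1718 were shared, 58.2% and 50.4% of the respective lists. SPINK1, ALB, APOH, AMBP, VIL1, CDH17 and CYP2C8, also among the 14, read under 4 on all LNCaP control arrays. No fall of these could be seen in LNCaP, which limits the share of 42.9%.

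The effect of overexpression differed between LNCaP and 22Rv1 for 11 of the 17 genes by the interaction term, beside 44.7% of all genes. The difference (LNCaP minus 22Rv1) was positive, a larger fall in 22Rv1, for 10 of them, beside 18.1% of all genes, and negative for 1, beside 26.6%: F5 fell more in LNCaP (difference -1.85 ± 0.57, adjusted p = 0.0152). For 7 of the 11 all LNCaP control arrays read under 4, so that no fall could have been seen there. GCG, F5, A1CF and RBM47 are the other 4, and RBM47 is the one measured far above 4 in both lines (difference 1.89 ± 0.19). GCG and A1CF averaged 3.56 and 4.76 in LNCaP control, and F5 4.28 in 22Rv1 control. The background therefore limited the fall that could be seen for these genes in that line. The difference between lines was -0.07 ± 0.34 for DDC (adjusted p = 0.883) and -0.12 ± 0.55 for CPS1 (adjusted p = 0.878), neither called. For TFPI it was -0.30 ± 1.52 (adjusted p = 0.888), and without LNCaP overexpression replicate 1 it was -2.25 (adjusted p = 0.00144), while CPS1 and TTR were then called as well (-0.75 and -0.82, adjusted p = 0.0492 and 0.000328).

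The lines themselves differed in most of these genes. Between LNCaP control and 22Rv1 control 12 of the 17 were lower and 5 higher in LNCaP, beside 33.5% lower, 30.2% higher and 63.6% either way of all genes, and no groups overlapped for any of the 17, beside 79.0%. ALB was lower in LNCaP by at least 431-fold (adjusted p = 2.07e-17) and SPINK1 by at least 70.9-fold (adjusted p = 5.43e-17). CYP2C8 was lower by at least 23.5-fold, VIL1 by at least 13.1-fold and MUC13 by at least 6.95-fold. GCG was lower by 5.09 ± 0.26 (adjusted p = 4.3e-11), and no fold is given because its LNCaP control mean of 3.56 lay under 4. A1CF was lower by 11.2-fold, and APOH, CDH17, AMBP and LGALS4 were lower as well. The genes higher in LNCaP were F5 by 4.10 ± 0.41 (17.1-fold, adjusted p = 1.96e-07), TFPI by 3.19 ± 1.08 (9.13-fold, adjusted p = 0.0175), DDC by 1.64 ± 0.24 (3.12-fold, adjusted p = 1.64e-05), CPS1 by 1.02 ± 0.39 (2.03-fold, adjusted p = 0.0296) and TTR by at least 0.20 (adjusted p = 0.0252). The calls of CPS1 and TTR were lost in fits without single arrays, with adjusted p from 0.055 to 0.0958 for CPS1 and from 0.0625 to 0.0728 for TTR. RBM47 was lower by 0.47 ± 0.13 (adjusted p = 0.00526) by its main probe set, and higher by 0.049 (adjusted p = 0.601) by the mean of its probe sets.

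Either shRNA group was also set against 22Rv1 control, comparisons that share arrays with those above and add no independent evidence. On the arrays labelled scramble 9 of the 17 genes were lower than in control and none was higher, beside 9.40% lower, 12.5% higher and 21.9% either way of all genes, and 13 of the 17 did not overlap, beside 50.0%. The limma fit gave 13 lower and 0 higher at an unadjusted p under 0.05, and without LNCaP overexpression replicate 1 in the fit 13 were called lower. CYP2C8 was lower by 4.12 ± 0.21 (17.4-fold, adjusted p = 1.27e-09), RBM47 by 3.03 ± 0.13, ALB by 2.10 ± 0.15 and APOH by at least 2.15, while SPINK1 (0.23 ± 0.13, adjusted p = 0.228), VIL1 (0.23 ± 0.16, adjusted p = 0.356) and CPS1 (0.12 ± 0.39, adjusted p = 0.874) were not called. On the arrays labelled ONECUT2 shRNA none of the 17 was called against control in either direction by limma, beside 2.35% higher, 2.11% lower and 4.46% either way of all genes, and 9 of the 17 did not overlap, beside 34.8%. At an unadjusted p under 0.05, 4 were higher and 2 lower. With the 2 groups alone in the fit 5 were called higher and 1 lower, TFPI (-2.57, adjusted p = 3.86e-05), and without LNCaP overexpression replicate 1 there were 3 and 2. The shares over all genes in this paragraph belong to the main fit with adjusted p. They are not the base for counts at an unadjusted p or from other fits. Fits on the 2 groups alone also called more of all genes. The median change of the 17 genes was 0.22, beside 0.02 over all genes.

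A list of 28 transcription factors of liver and gut had 23 genes with a probe set and 12 that passed the filter. In 22Rv1 overexpression 6 of the 12 were higher and 2 lower, beside 36.5% and 24.3% of all genes. PPARA, a nuclear receptor of fatty acid breakdown, rose by 1.63 ± 0.13 (adjusted p = 2.01e-08), GATA6 by 1.41 ± 0.14 (adjusted p = 2.11e-07) and CEBPA by at least 1.31 (adjusted p = 7.88e-06). HNF4G, a relative of HNF4A found in gut, fell by 1.64 ± 0.18 (adjusted p = 8.16e-07), from 9.61 ± 0.21 to 7.97 ± 0.03 (SD, n = 3). In LNCaP 6 were higher and 5 lower, beside 34.1% and 28.0%: PPARA rose by 1.90, SOX9 by 1.78 and GATA6 by 1.04, and ISX, an intestinal homeobox factor, fell by at least 1.21 (adjusted p = 1.29e-08). Between the shRNA groups 3 of the 12 were called, beside 29.6% of all genes, all higher on the arrays labelled ONECUT2 shRNA: ONECUT2 itself, HNF4G (1.84 ± 0.18, adjusted p = 1.37e-06) and GATA6 (0.50 ± 0.14, adjusted p = 0.0116). The medians of the 12 genes were 0.41, 0.48 and -0.10 in these comparisons. HNF4G averaged 7.55 on the arrays labelled scramble and 9.39 on those labelled ONECUT2 shRNA, and 2.75 and 3.25 in LNCaP control and overexpression. Like 10 of the 17 genes above it was thus lower in 22Rv1 overexpression and higher on the arrays labelled ONECUT2 shRNA.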

How the data were processed

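The deposited table holds 1 log2 expression value per probe set and array, which the authors made with GCRMA per the submitters' processing notes. No version is stated, nor whether the 18 arrays were normalized as 1 set. GCRMA subtracts background by probe sequence, so values under about 4 carry little information. Called changes of a gene's main probe set that end there, from a mean over 4, are given as bounds. Where no array of the lower group reached 4, such a change is at least the mean of the higher group minus 4. Changes that were not called, those of further probe sets or other fits, and differences of effect between lines have no bound, also near background.

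Of 54675 probe sets, 62 were platform controls, 41091 had 1 gene symbol in the platform's gene table and 1801 had several. Group means of all 18 arrays were fitted with limma 3.58.1 in R 4.3.3 (lmFit, eBayes with trend and robust), 1 probe set per gene, over 12156 genes with a value over 4 on at least 3 arrays. A gene was called at a Benjamini-Hochberg adjusted p under 0.05 within a comparison. The fit was tested on simulated data. Only single values had permutation tests.

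Every tested gene of the 34 was named. Of the other lists, up to 4 called genes per comparison, by smallest adjusted p, were named, along with ONECUT2. The 34 genes, the other lists and the markers were chosen with earlier results of these data known. Alternatives covered scaling, the filter, a floor at 4, the choice of probe set, the eBayes settings, the groups fitted, a replicate block and leaving out each array.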

Additional observations from a re-analysis of the deposited data

Results flagged for a closer look

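The change on ONECUT2 overexpression differed between LNCaP and 22Rv1 by the interaction term of the limma fit for 11 of the 17 tested genes, beside 44.7% of all genes (18.1% with a positive and 26.6% with a negative difference). Each value is the log2 change in LNCaP minus that in 22Rv1, so a positive value is a larger fall in 22Rv1. Of the secreted gut and pancreas products, SPINK1 differed by 3.38 and GCG by 1.80. Of the plasma proteins, ALB differed by 1.84, APOH by 2.87, AMBP by 1.04 and F5 by -1.85, the 1 gene with the larger fall in LNCaP. The RNA-binding genes A1CF and RBM47 differed by 1.87 and 1.89, the gut surface genes VIL1 and CDH17 by 2.43 and 1.60, and CYP2C8 by 3.69. For SPINK1, ALB, APOH, AMBP, VIL1, CDH17 and CYP2C8 all LNCaP control arrays read under 4, so a fall could not be measured in that line. Control means near or under 4 also limited the fall that could be seen for GCG and A1CF in LNCaP and for F5 in 22Rv1.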

How the results depend on the processing

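All counts here are of the 17 tested genes unless stated. Over single genes and settings, 1808 values kept direction and call, 33 gained a call, 20 lost one and 2 reversed, both with the mean of a gene's probe sets: MUC13 in 22Rv1 overexpression (-0.40) and RBM47 in LNCaP control against 22Rv1 control (0.049). Genes higher in 22Rv1 overexpression (1 as reported) numbered 3 with no filter and 0 with a filter at 5. In LNCaP overexpression (1 as reported) they numbered 2 with no filter, 0 with a filter at 5, 0 with values under 4 set to 4, and 1 to 2 with an array left out. Genes lower on the arrays labelled ONECUT2 shRNA than labelled scramble (0) numbered 2 with only these groups fitted and 0 to 2 with an array left out. Against 22Rv1 control, genes higher on the arrays labelled ONECUT2 shRNA (0) numbered 2 with values under 4 set to 4, 1 with the mean of probe sets, 1 with eBayes without trend and robust, 5 with only these groups fitted and 0 to 3 with an array left out. Genes lower there (0) numbered 1 with the floor, 1 with only these groups fitted and 0 to 2 with an array left out. Genes higher in LNCaP control than 22Rv1 control (5) numbered 3 to 5 with an array left out. Genes with the larger fall in LNCaP (1) numbered 3 with the floor and 1 to 4 with an array left out. Over all genes, calls between the arrays labelled ONECUT2 shRNA and 22Rv1 control went from 542 to 1974 with only these groups fitted and from 210 to 1933 with an array left out, and the share higher from 52.8% to 40.2% with the mean of probe sets. Calls between the arrays labelled scramble and 22Rv1 control went from 2659 to 4628 with only these groups fitted and 4630 without LNCaP overexpression replicate 1, and those between the shRNA groups from 3593 to 5456 without that array. Between arrays of the same replicate number, correlations of deviations ran from -0.22 to 0.43, and in no comparison was every pair over 0.1. The highest, 0.43 and 0.34, were replicates 2 and 3 of the arrays labelled scramble against 22Rv1 control. With 3 arrays per group this cannot decide whether some replicates were paired. The replicate block left every count of the 17 genes as it was, for example 14 lower and 1 higher in 22Rv1 overexpression. Signal near background limits TTR, AMBP, LGALS4 and most genes in LNCaP.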

Other observations

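A list of 63 other liver products had 15 tested genes. In 22Rv1 overexpression 5 were higher and 5 lower, beside 36.5% and 24.3% of all genes: C5, a complement protein, fell by 3.08 ± 0.19 (limma adjusted p = 1.35e-09) from a mean of 8.29 to 5.21, AFP (alpha-fetoprotein) fell by at least 0.45, CYP2E1 rose by at least 1.31 and ASS1, of the urea cycle, rose by 1.65 ± 0.31 (adjusted p = 0.000253). In LNCaP 6 were higher and 2 lower, beside 34.1% and 28.0%, the latter ARG1 by at least 1.26 and UGT2B4 by at least 1.55. On the arrays labelled ONECUT2 shRNA 5 of the 15 were called against those labelled scramble, all higher, beside 13.4% of all genes higher, among them UGT2B4 by at least 2.11, APOC1 by 2.76 ± 0.30 (6.79-fold, adjusted p = 5.06e-06) and ASS1 by 1.55. The medians of the 15 genes were -0.05, 0.17 and 0.15 in these comparisons, beside 0.10, 0.09 and -0.03 over all genes.

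A list of 52 other gut products had 22 tested genes. In 22Rv1 overexpression 7 were higher and 8 lower, beside 36.5% and 24.3% of all genes. LGR5, a receptor of intestinal stem cells, fell by 2.80 ± 0.21 (6.95-fold, limma adjusted p = 9.49e-09), SI (sucrase-isomaltase) by 2.98 ± 0.24 (7.87-fold, adjusted p = 2.85e-08) and SLC26A3, a chloride exchanger of the colon, by at least 1.13, while PLS1, an actin bundler of microvilli, rose by 1.35 ± 0.08 (adjusted p = 1.43e-09). In LNCaP 7 were higher and 4 lower, beside 34.1% and 28.0%: PLS1 rose by 1.76 ± 0.08 and FABP6 by at least 1.35, and SLC26A3 fell by at least 1.64. Between the shRNA groups 7 were higher on the arrays labelled ONECUT2 shRNA and 2 lower, beside 13.4% and 16.1%, with LGR5 higher by 4.04 ± 0.21 (16.4-fold, adjusted p = 7.68e-10), DPP4 by 1.60 ± 0.19 (3.03-fold, adjusted p = 9.66e-06), SLC26A3 by at least 1.05 and CHGA by 1.73 ± 0.29. The medians of the 22 genes were -0.14, 0.07 and 0.14.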
